A study of Mus musculus with 9 samples.

Results

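The Hox genes encode homeodomain transcription factors that mark position along the body and along the limb. In the mouse they lie in 4 clusters, and their order along each cluster follows the order in which they are used from head to tail. Genes in the matching place of different clusters form a paralog group, numbered from anterior to posterior. In the limb, the posterior groups pattern the segments from thigh to toes, and adult connective tissue and muscle retain part of this positional code. All protein-coding genes whose symbol was Hox, a cluster letter from a to d and a number were taken, which gave 39 of the 35275 genes in the table. They were 11 Hoxa genes on chromosome 6, 10 Hoxb genes on chromosome 11, 9 Hoxc genes on chromosome 15 and 9 Hoxd genes on chromosome 2 (mm10).

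RNA was sequenced from gastrocnemius, the large calf muscle, of wild-type C57BL/6J mice aged 8 to 10 weeks. Each mouse carried an implanted osmotic pump, a capsule that releases its content at a steady rate. The pump delivered ammonium acetate at 2.5 mmol/kg/day (5 libraries, numbered 4, 5, 6, 7 and 8) or sterile PBS, phosphate-buffered saline (4 libraries, numbered 4, 5, 7 and 8), and the muscle was frozen after 4 weeks. The series was designed to examine how skeletal muscle responds to raised ammonia. The labels do not tie each library to an animal of its own, and p-values here reflect how far the libraries of a group differ among themselves. They give neither the sex nor whether reads were counted by strand.

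Values are FPKM as the authors deposited them, counted fragments scaled to gene length and library total, which allows levels to be set side by side between genes. The reads recovered from them numbered 24930547 to 41780251 per library. Gastrocnemius fibre markers (8 genes, among them Acta1, Ckm and Myh4) summed to 63570 to 92340 FPKM in the ammonium acetate libraries and 62230 to 75850 FPKM in the PBS libraries. Bone and cartilage markers summed to at most 0.349 FPKM in any library. Skin keratins and related markers summed to 77.7 FPKM in ammonium acetate library 5 and to between 1.78 and 2.97 FPKM in the other libraries. The whole tissue was sequenced, so that fewer cells of a type and less RNA per cell cannot be told apart.

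Promoter sequence is shown for 4 of the Hox genes described below. No promoter was found for Hoxc10 or Hoxc11, so none is shown for them. Hoxa11 and Hoxa13 varied several-fold between libraries and were lowest in the same 3 of them. Hoxd9 and Hoxd12 lie in the same cluster, and the first was among the most abundant Hox mRNAs while the second had no read in any library. Each sequence runs from 250 bases before to 50 bases after a gene start, taken from RefSeq on GRCm38.p6, and capitals mark every CG pair. They are, in order, chr6:52245761-52246060 on the minus strand, chr6:52260831-52261130 on the minus strand, chr2:74697513-74697812 on the plus strand and chr2:74674763-74675062 on the plus strand.
Hoxa11: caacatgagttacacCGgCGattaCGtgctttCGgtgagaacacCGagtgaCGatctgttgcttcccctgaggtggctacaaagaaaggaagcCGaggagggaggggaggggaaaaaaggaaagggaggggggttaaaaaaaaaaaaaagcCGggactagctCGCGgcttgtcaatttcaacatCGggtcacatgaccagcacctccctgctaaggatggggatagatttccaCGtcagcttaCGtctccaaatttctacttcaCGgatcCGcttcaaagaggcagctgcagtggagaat
Hoxa13: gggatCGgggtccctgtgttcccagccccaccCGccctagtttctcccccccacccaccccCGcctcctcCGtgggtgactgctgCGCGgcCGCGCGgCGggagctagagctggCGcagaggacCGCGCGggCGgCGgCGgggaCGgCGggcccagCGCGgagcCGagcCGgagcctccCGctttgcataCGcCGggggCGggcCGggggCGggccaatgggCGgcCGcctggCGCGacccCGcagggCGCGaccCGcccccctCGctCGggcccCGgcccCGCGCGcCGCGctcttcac
Hoxd9: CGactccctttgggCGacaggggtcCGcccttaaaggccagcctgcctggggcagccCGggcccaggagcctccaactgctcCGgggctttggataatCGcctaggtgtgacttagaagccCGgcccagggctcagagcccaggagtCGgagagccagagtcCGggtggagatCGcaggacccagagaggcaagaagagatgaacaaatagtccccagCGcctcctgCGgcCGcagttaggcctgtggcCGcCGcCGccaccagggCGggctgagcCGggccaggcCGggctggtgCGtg
Hoxd12: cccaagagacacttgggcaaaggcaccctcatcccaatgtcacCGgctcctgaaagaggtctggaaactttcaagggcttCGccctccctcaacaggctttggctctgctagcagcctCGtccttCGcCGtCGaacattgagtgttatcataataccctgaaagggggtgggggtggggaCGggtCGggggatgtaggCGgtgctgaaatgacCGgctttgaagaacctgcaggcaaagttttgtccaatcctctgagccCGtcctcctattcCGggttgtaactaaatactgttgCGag

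The Hoxa13 stretch holds 45 CG pairs and the Hoxa11 stretch 15, although both genes lie side by side in the same cluster. The Hoxd9 stretch holds 20 and the Hoxd12 stretch 13. RefSeq promoters were found for 22 of the 39 Hox genes, 24 stretches in all. Their median lay between 14 and 15 CG pairs, with a range of 4 to 45. Over all 32851 promoters of the table the median was 7, and 34.6% of them held at least 15. Silent and active Hox genes overlapped in this count, since the unread Hoxd13 has 37 and the unread Hoxd1 has 29, against 6 in Hoxd8. The short core TTTAT, a sequence that posterior Hox proteins bind, was found on one strand or the other in 9 of the 24 Hox promoters and in 40% of all promoters. The longer TGATTTAT, which contains that core and is bound by Hox proteins with their cofactors, was in 0 of the 24 and in 0.977% of all. TATAAA, the TATA box, overlaps TTTAT when read on the other strand, and was in 4 of the 24 and in 13.6% of all. A match says only that the letters are there.

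Gastrocnemius carried a posterior Hox profile in both groups. Summed over the 39 genes, Hox mRNA came to 127.6 ± 9.19 FPKM in ammonium acetate libraries (SD, n = 5) and 113.9 ± 8.38 FPKM in PBS libraries (SD, n = 4). The Hoxc cluster held 51.1% of that sum in ammonium acetate libraries and 50.6% in PBS libraries, the largest share of the 4 clusters. The Hoxd share was 29.9% in ammonium acetate and 30.3% in PBS libraries. Hoxa held 18.2% in ammonium acetate and 18.0% in PBS libraries, and Hoxb 0.813% in ammonium acetate and 1.10% in PBS libraries. The Hoxb cluster was therefore nearly unread as a whole, at 0.662 to 1.43 FPKM summed in single ammonium acetate libraries and 0.829 to 1.65 FPKM in single PBS libraries.

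By paralog group, group 10 was highest at 59.0 ± 5.32 FPKM in ammonium acetate libraries and 51.9 ± 5.69 FPKM in PBS libraries. Group 8 followed at 23.5 ± 2.39 FPKM in ammonium acetate and 21.7 ± 4.23 FPKM in PBS libraries, and group 9 at 20.5 ± 1.93 FPKM in ammonium acetate and 18.4 ± 2.70 FPKM in PBS libraries. Groups 9 to 13 together made 71.7% of all Hox FPKM in ammonium acetate libraries and 68.7% in PBS libraries. Groups 1 to 3, which pattern the hindbrain and neck, summed to 0.449 ± 0.327 FPKM in ammonium acetate libraries and 0.928 ± 0.196 FPKM in PBS libraries. No read was listed for either gene of group 12. Group 11 was the posterior group whose libraries separated by treatment, with 8.44 to 11.1 FPKM in ammonium acetate and 5.62 to 6.84 FPKM in PBS. Group 5 separated the other way, with 1.15 to 1.38 FPKM in ammonium acetate and 1.60 to 1.82 FPKM in PBS. Hoxc11 alone averaged 7.39 of the 9.42 FPKM of group 11 in ammonium acetate and 5.45 of the 6.33 FPKM in PBS. Hoxa5 led group 5, and both genes also separated by treatment on their own, so these sums largely restate them. Among all genes tested singly, 2.13% did not overlap between the treatments. The sums are descriptions and were not tested.

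**Figure D1:**
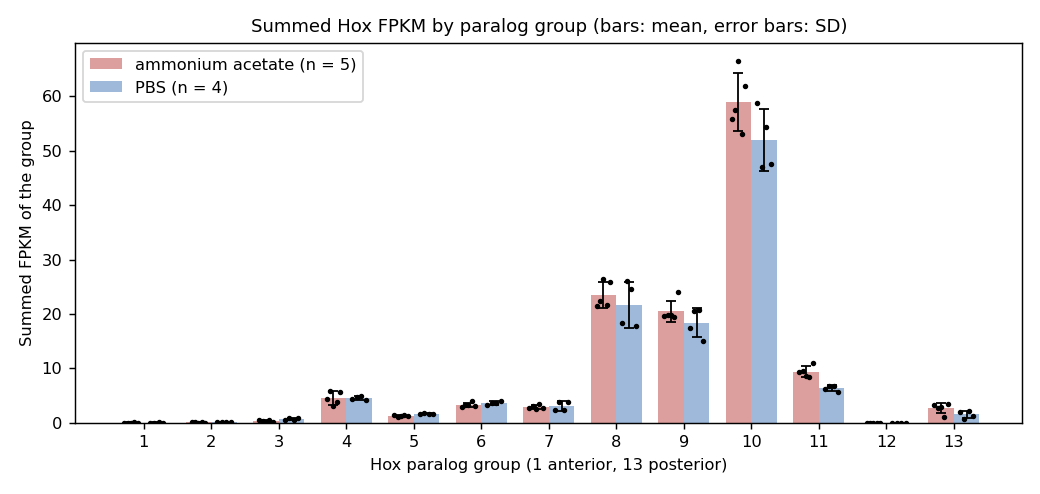
Summed FPKM of the Hox genes in each paralog group, from anterior (1) to posterior (13); bars are group means, error bars SD and points single libraries, with ammonium acetate (n = 5) left of PBS (n = 4). Group 10 stands highest in both treatments, groups 1 to 3 and 12 lie at or near 0, and the points of group 11 do not overlap between treatments. Hoxc11 makes up most of group 11.

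Of the 39 genes, 17 reached a mean of 0.5 FPKM over the 9 libraries and were tested, namely 8 Hoxa, 1 Hoxb, 5 Hoxc and 3 Hoxd genes. Another 15 had reads in at least 1 library but a lower mean, and 7 had none (Hoxb1, Hoxb13, Hoxc12, Hoxd1, Hoxd3, Hoxd12 and Hoxd13). The genes nearest the limit were Hoxb7 at 0.558 and Hoxa6 at 0.590 FPKM on its upper side, and Hoxa3 at 0.474 and Hoxc5 at 0.459 FPKM below it. A count of 3 reads stands for 0.0696 to 0.117 FPKM of Hoxc12 and 0.0283 to 0.0475 FPKM of Hoxd12, depending on the library. RNA below such levels would give few reads or none at this depth, so a gene without reads is not shown to be silent. Hoxd3 shares 62.3% of its exon bases with other genes on the same strand, and Hoxd4 52.3%, so their values near 0 depend on how shared reads were counted.

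Hoxc10, which helps pattern the hindlimb and lumbar region and is not used in the mouse forelimb, was the most abundant Hox mRNA. It measured 44.4, 46.2, 55.4, 41.9 and 48.5 FPKM in ammonium acetate libraries 4, 5, 6, 7 and 8, against 47.9, 37.6, 43.7 and 38.1 FPKM in PBS libraries 4, 5, 7 and 8. The groups overlapped, with ammonium acetate library 6 highest and PBS library 5 lowest. Its log2 fold change came to 0.18 (standard error 0.11) (limma, Benjamini-Hochberg adjusted p = 0.530), resting on 1827 to 3484 reads per library, and it was 0.09 without ammonium acetate libraries 6 and 8. Only 3.13% of all genes in the table had a higher mean FPKM. Its gene lies at chr15:102966796-102971893, 4.5 kb from Hoxc9, and 8.7% of its exon bases are shared with another gene on the same strand.

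Hoxd8 and Hoxd9 came next and stand side by side on chromosome 2. Hoxd8, at chr2:74704615-74707933, measured 21.1, 22.0, 25.9, 21.4 and 25.7 FPKM in the ammonium acetate libraries, against 17.9, 25.6, 24.2 and 17.5 FPKM in the PBS libraries. Hoxd9, which helps shape the upper segment of mouse limbs, measured 12.3, 11.7, 12.1, 12.6 and 14.6 FPKM in the ammonium acetate libraries, against 9.39, 12.8, 14.1 and 8.01 FPKM in the PBS libraries. For both genes PBS libraries 4 and 8 were the lowest 2 of all 9, and PBS libraries 5 and 7 lay among the ammonium acetate libraries. The log2 fold changes were 0.14 (standard error 0.13) for Hoxd8 and 0.22 (standard error 0.15) for Hoxd9, neither past the threshold, and leaving out single libraries gave 0.05 to 0.23 for Hoxd8 and 0.08 to 0.34 for Hoxd9. Every library of Hoxd8 lay above every library of Hoxd9 on the FPKM scale.

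Hoxa10, Hoxc11 and Hoxc9 followed in the order of mean level, and each overlapped its neighbour in that order. Hoxa10 acts in the thigh, the lumbar vertebrae and the uterus, and it measured 9.08, 8.90, 9.54, 8.21 and 11.8 FPKM in the ammonium acetate libraries, against 8.31, 7.14, 7.94 and 7.83 FPKM in the PBS libraries. Ammonium acetate library 8 stood highest, and library 7 of that group lay below PBS library 4. Its log2 fold change was 0.26 (standard error 0.11, 95% interval 0.01 to 0.51, adjusted p = 0.527 by limma). Without ammonium acetate libraries 6 and 8 it was 0.15. Hoxc9, a trunk gene used at thoracic level, measured 4.48, 4.73, 4.92, 4.28 and 6.14 FPKM in the ammonium acetate libraries, against 5.03, 4.35, 3.97 and 3.95 FPKM in the PBS libraries, with a log2 fold change of 0.16 and a standard error of 0.13. Without ammonium acetate library 8 it was 0.08, and without libraries 6 and 8 of that group 0.06.

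Below these, a further 10 tested genes had means between 0.590 and 2.90 FPKM and Hoxb7 a mean of 0.558 FPKM, with ranges that overlapped from gene to gene. They were Hoxa9, Hoxc6, Hoxa7, Hoxc4, Hoxd10, Hoxa13, Hoxa4, Hoxa11, Hoxa5 and Hoxa6. Levels stepped between neighbours, as between Hoxa10 at 8.75 FPKM and Hoxa9 at 2.90 FPKM, which lie 0.1 kb apart. Within the Hoxc cluster the mean was 0.285 FPKM for Hoxc8, 4.65 FPKM for Hoxc9 and 44.9 FPKM for Hoxc10. At 3 places a tested gene stood beside one with at most 4 reads in any library. Hoxc11 averaged 6.53 FPKM over the 9 libraries and Hoxc12, 15.8 kb away, was at 0. Hoxd10 averaged 2.25 FPKM and Hoxd11, 4.9 kb away, had 4 reads in a single ammonium acetate library. On the anterior side, Hoxd8 averaged 22.4 FPKM and Hoxd4, 4.0 kb away, 0.00735 FPKM.

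**Figure D2:**
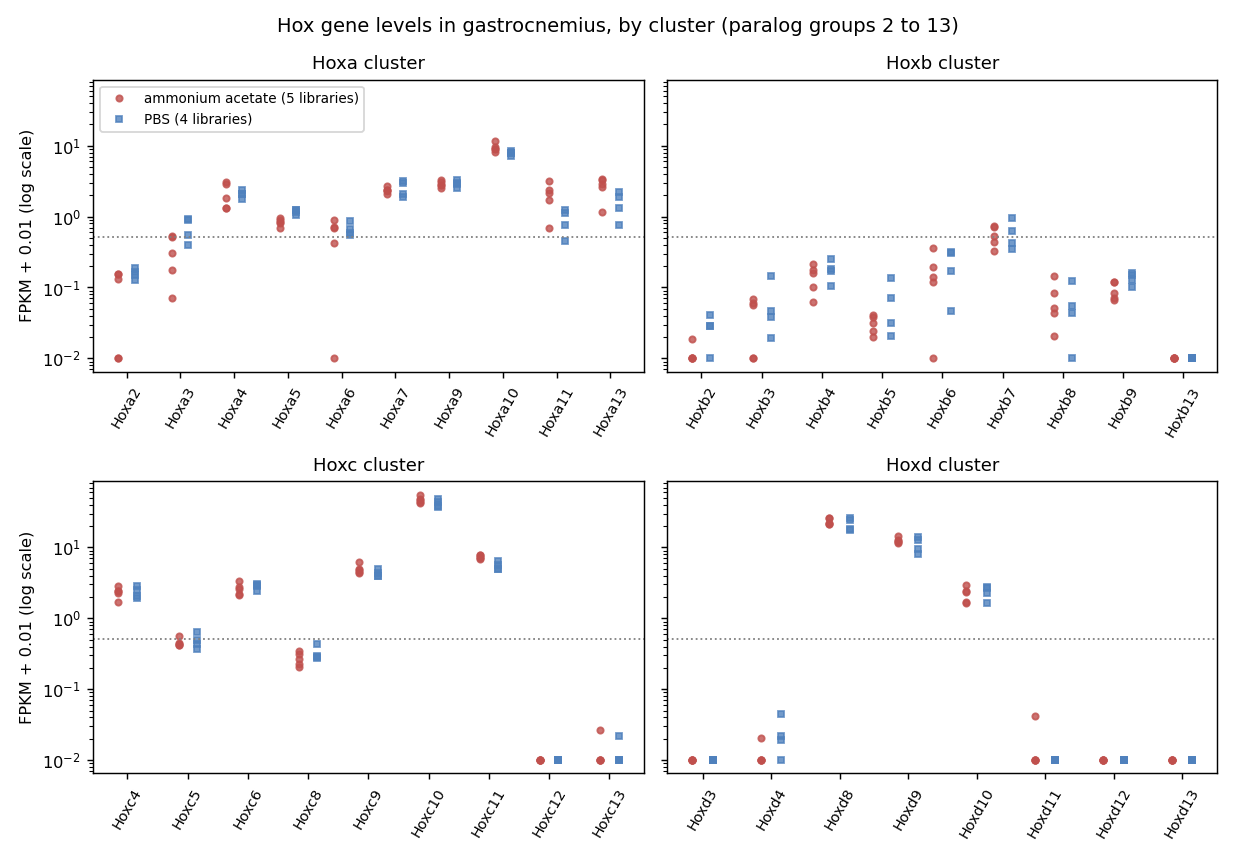
FPKM of the Hox genes of paralog groups 2 to 13 on a log scale after adding 0.01, by cluster and in the order of the paralog groups, 1 point per library, with ammonium acetate (circles) left of PBS (squares) and the dotted line at 0.5 FPKM. The genes whose mean reaches the line are Hoxa4 to Hoxa13, Hoxb7, Hoxc4, Hoxc6, Hoxc9 to Hoxc11 and Hoxd8 to Hoxd10, and the level breaks off at Hoxc12, Hoxd11 and Hoxd4.

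The comparison of ammonium acetate with PBS gave no Hox gene past the threshold. With limma and Benjamini-Hochberg adjustment 0 of the 17 tested Hox genes were called, against a background of 0% of 11337 genes tested, and the smallest adjusted p of any gene was 0.527. An unadjusted p under 0.05 was found for 5 of 17 (29.4%), and for 8.57% of all genes tested. With limma's voom on the recovered reads 0 genes were called, and 926 genes, 3 of them Hox genes, had an unadjusted p under 0.05. Of the 5 genes, 4 were higher in ammonium acetate (Hoxc11, Hoxa11, Hoxa10 and Hoxa13; background 3.21%) and 1 was lower (Hoxa5; background 5.36%). The groups did not overlap in 2 of the 17 genes, against 2.13% of all genes tested, namely Hoxc11 (higher, background 1.25%) and Hoxa5 (lower, background 0.873%). None of these counts is a call, and the members had been chosen with earlier results of these data known.

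Over the 17 genes the log2 fold change was above 0 in 8 and below 0 in 9, with a median of -0.00084, where the median of all genes tested was -0.03 and 43.9% of them lay above 0. The 8 tested genes of groups 4 to 8 had a median of -0.06, with Hoxd8 above 0 and the other 7 below, although Hoxc4 moved above 0 when the libraries were rescaled. Without ammonium acetate library 6 alone, Hoxa4 (0.07), Hoxa6 (0.01), Hoxb7 (0.0064) and Hoxc4 (0.09) also lay above 0, and in all 14 of the 18 Hox genes then tested did so. The 9 tested genes of groups 9 to 13 had a median of 0.22, with 7 above 0 and Hoxa9 and Hoxd10 below, although Hoxa9 moved above 0 with median-of-ratios scaling. The 95% intervals of 9 genes lay within 0.5 on either side of 0. Those of Hoxa11 and Hoxa13 reached past 1, so that a change of more than 2-fold in them could be neither shown nor excluded with these libraries. The intervals are on the log2(FPKM + 0.5) scale, which understates changes in genes of low FPKM. An interval within 1 therefore does not exclude a 2-fold change in FPKM for genes such as Hoxa6 (-0.81 to 0.35) and Hoxb7 (-0.47 to 0.40).

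**Figure D3:**
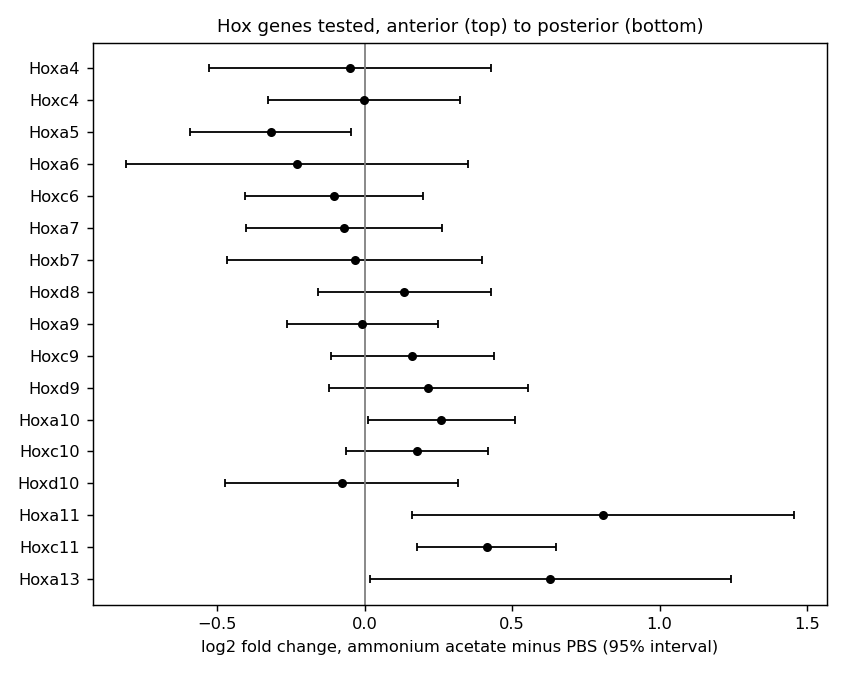
Log2 fold change, ammonium acetate minus PBS, of the 17 tested Hox genes with 95% intervals from limma, ordered from anterior (top) to posterior (bottom). The intervals of Hoxa5, Hoxa10, Hoxa11, Hoxc11 and Hoxa13 leave out 0 before adjustment and no gene passes after it, and the widest intervals belong to Hoxa6, Hoxa11 and Hoxa13.

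Hoxc11, which with its paralogs patterns the segment between knee and ankle in the mouse hindlimb, had the smallest p of the Hox genes. It measured 7.19, 7.22, 6.94, 7.76 and 7.86 FPKM in ammonium acetate libraries 4 to 8, against 4.91, 6.40, 5.61 and 4.88 FPKM in PBS libraries 4, 5, 7 and 8. All 5 ammonium acetate libraries lay above all 4 PBS libraries, and PBS library 5 came closest. The log2 fold change came to 0.41 (standard error 0.11) with a 95% interval of 0.18 to 0.65 (limma, unadjusted p = 0.00245, adjusted p = 0.527). Leaving out single libraries gave 0.37 to 0.49, and leaving out ammonium acetate libraries 6 and 8 together gave 0.41. Within the groups it had the smallest coefficient of variation of the tested Hox genes, 8.53%, beside 4.85% that counting alone would give, on 329 to 560 reads. Its gene is at chr15:102954427-102957708.

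Hoxa11, its paralog on chromosome 6 (chr6:52242106-52245810), is known in mouse limbs from the connective tissue around the muscles of the same segment. It measured 2.12, 2.37, 1.72, 0.684 and 3.19 FPKM in the ammonium acetate libraries, against 1.21, 0.447, 1.13 and 0.744 FPKM in the PBS libraries. Of the ammonium acetate libraries, 4, 5, 6 and 8 lay above every PBS library, while library 7 lay among the PBS libraries. The log2 fold change came to 0.81 (standard error 0.30) with a 95% interval of 0.16 to 1.46 (limma, unadjusted p = 0.0187, adjusted p = 0.527). It was 1.06 without ammonium acetate library 7 and 0.64 without PBS library 5. The highest library was 7.14 times the lowest, and the coefficient of variation within groups was 48.4%, beside 9.44% from counting. On the opposite strand 35.0% of the exon bases of Hoxa11 are shared with an antisense RNA described below. Its values thus depend in part on whether reads were counted by strand.

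Hoxa13 is the last gene of its cluster (chr6:52257694-52260880), is required for the digits and restrains Hoxa11 in the mouse foot plate. It measured 3.23, 2.65, 2.90, 1.13 and 3.42 FPKM in the ammonium acetate libraries, against 1.88, 0.755, 2.20 and 1.32 FPKM in the PBS libraries. As with Hoxa11, ammonium acetate library 7 alone of its group lay among the PBS libraries. Its log2 fold change came to 0.63 (standard error 0.28) with a 95% interval of 0.02 to 1.24 (limma, unadjusted p = 0.0446, adjusted p = 0.527). The change came to 0.85 without ammonium acetate library 7 and to 0.42 without PBS library 5. Reads ranged from 46 to 289, and the coefficient of variation within groups was 37.1%, beside 7.68% from counting.

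Hoxa5, which acts in the lung, the airway and the skeleton of the neck and shoulder, was the tested Hox gene with the smallest p among those with lower values in ammonium acetate. It measured 0.812, 0.684, 0.830, 0.944 and 0.877 FPKM in the ammonium acetate libraries, against 1.22, 1.21, 1.15 and 1.03 FPKM in the PBS libraries. Every ammonium acetate library lay below every PBS library, and ammonium acetate library 7 and PBS library 8 were the closest pair. The log2 fold change came to -0.32 (standard error 0.12) with a 95% interval of -0.59 to -0.05 (limma, unadjusted p = 0.0261, adjusted p = 0.527). It rests on 32 to 90 reads per library, whose counting error of 12.9% exceeds the 9.49% seen within groups. Leaving out single libraries gave -0.35 to -0.28.

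**Figure D4:**
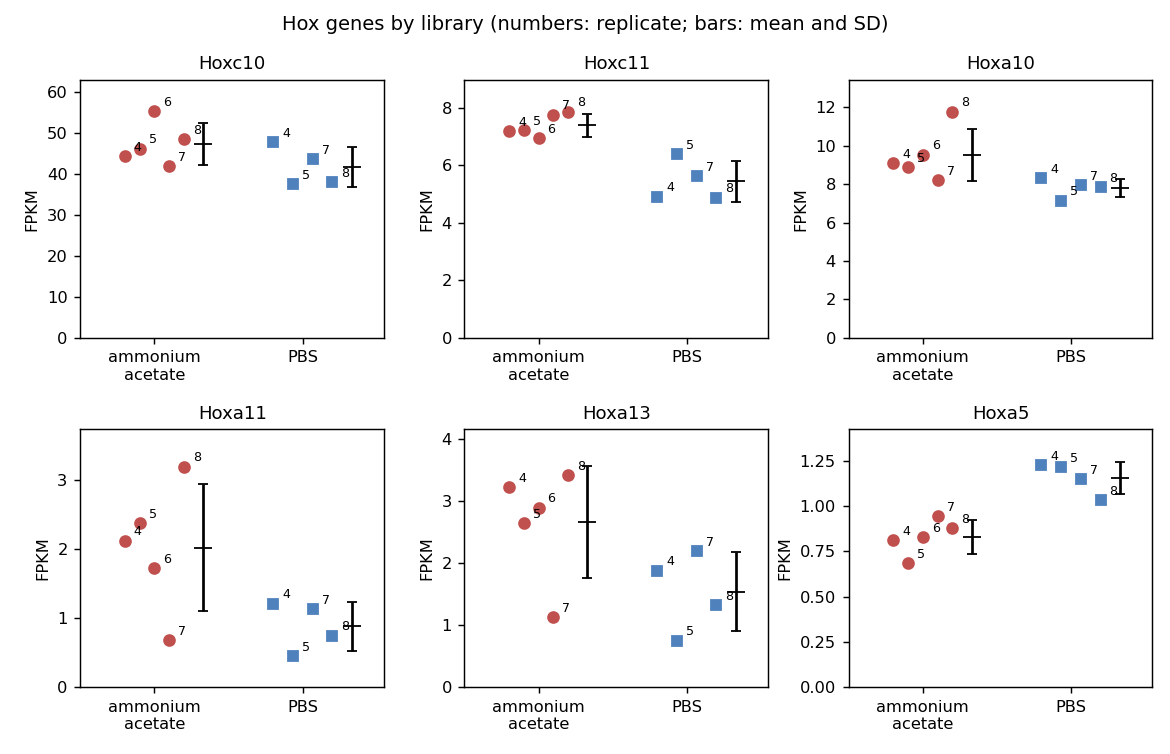
FPKM of 6 Hox genes in every library, labelled by replicate number, with the mean and SD at the right of each group; ammonium acetate (circles, n = 5) stands left of PBS (squares, n = 4) and all axes start at 0. Hoxc11 and Hoxa5 do not overlap between groups, whereas ammonium acetate library 7 falls among the PBS libraries for Hoxa11 and Hoxa13.

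The remaining tested genes of groups 9 and 10 differed less than their spread. Hoxa9, well known from blood progenitors, measured 2.77, 3.25, 2.79, 2.54 and 3.09 FPKM in the ammonium acetate libraries, against 2.88, 3.26, 2.52 and 2.97 FPKM in the PBS libraries. The groups lay over each other, with a log2 fold change of -0.01 and a 95% interval of -0.27 to 0.25, and its sign changed in 9 of 23 alternative settings. Hoxd10, which with its paralogs shapes the thigh and the lumbar motor neurons, measured 2.38, 2.32, 1.61, 2.93 and 1.70 FPKM in the ammonium acetate libraries, against 2.66, 2.25, 2.78 and 1.63 FPKM in the PBS libraries. The lowest values, in ammonium acetate libraries 6 and 8 and PBS library 8, came from both groups.

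The anterior and middle genes are better known from the trunk and the forelimb level than from the calf. Hoxa4 measured 1.83, 2.84, 1.29, 1.31 and 3.12 FPKM in the ammonium acetate libraries and 1.76, 2.37, 2.04 and 2.08 FPKM in the PBS libraries. Its ammonium acetate libraries thus enclosed the PBS libraries from both sides, with a standard deviation of 0.855 FPKM in ammonium acetate and 0.249 FPKM in PBS. Hoxa7 measured 2.33, 2.33, 2.09, 2.70 and 2.25 FPKM in the ammonium acetate libraries, against 1.87, 2.92, 2.10 and 3.21 FPKM in the PBS libraries. For Hoxa7 the 3 highest libraries were PBS 8, PBS 5 and ammonium acetate 7, the same 3 that were lowest for Hoxa11 and Hoxa13. Hoxc4, a gene of the neck level, measured 2.40, 2.82, 1.69, 2.30 and 2.42 FPKM in the ammonium acetate libraries, against 2.46, 2.08, 2.81 and 1.94 FPKM in the PBS libraries, with means of 2.33 FPKM in ammonium acetate and 2.32 FPKM in PBS. Hoxc6, a gene of the upper thorax, measured 2.13, 2.59, 3.35, 2.75 and 2.23 FPKM in the ammonium acetate libraries, against 2.42, 2.93, 2.83 and 3.08 FPKM in the PBS libraries. Both genes overlapped between the groups, and ammonium acetate library 6 was lowest for Hoxc4 and highest for Hoxc6. Hoxa6 measured 0.685, 0.413, 0, 0.878 and 0.714 FPKM in the ammonium acetate libraries, against 0.539, 0.584, 0.849 and 0.649 FPKM in the PBS libraries. Hoxb7, the single Hoxb gene tested, measured 0.316, 0.715, 0.422, 0.732 and 0.527 FPKM in the ammonium acetate libraries, against 0.411, 0.943, 0.334 and 0.625 FPKM in the PBS libraries, on 14 to 32 reads. Both overlapped too, and Hoxa6 had no read in ammonium acetate library 6 and up to 31 elsewhere. The log2 fold changes of these 6 genes lay between -0.23 (Hoxa6) and -0.00084 (Hoxc4), none past the threshold. That of Hoxa6 turned on the library without a read, at 0.01 without it, -0.57 with a pseudocount of 0.1 and -0.88 with voom.

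Among the 15 genes with reads but too few for the test, Hoxa3, a neck and thymus gene, had the highest mean. It measured 0.504, 0.294, 0.0601, 0.524 and 0.164 FPKM in the ammonium acetate libraries, against 0.546, 0.910, 0.388 and 0.876 FPKM in the PBS libraries, on 4 to 76 reads. Ammonium acetate libraries 6 and 8 were the lowest, and the groups overlapped. When genes with a mean of at least 0.1 FPKM were tested, its log2 fold change was -0.56 (limma, unadjusted p = 0.0218, adjusted p = 0.557). On the opposite strand 25.4% of its exon bases are shared with other genes, as are 20.4% of those of Hoxa7 and 16.0% of those of Hoxa4, so that these values depend on whether reads were counted by strand. Hoxc5 ranged from 0.408 to 0.549 FPKM in ammonium acetate and from 0.363 to 0.623 FPKM in PBS, and Hoxc8 from 0.199 to 0.333 FPKM in ammonium acetate and from 0.269 to 0.424 FPKM in PBS. The other 12 genes averaged at most 0.175 FPKM (Hoxb6) over the 9 libraries.

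Noncoding genes of the clusters followed their neighbours in part. Hoxa11os, an antisense RNA of the Hoxa11 locus, measured 2.0, 2.06, 2.13, 0.474 and 1.68 FPKM in the ammonium acetate libraries, against 1.02, 0.297, 1.23 and 0.761 FPKM in the PBS libraries. Ammonium acetate library 7 and PBS libraries 5 and 8 were lowest, as for Hoxa11. Its log2 fold change came to 0.68 (standard error 0.31) (limma, unadjusted p = 0.0489, adjusted p = 0.527). It overlaps 35.0% of the exon bases of Hoxa11 on the opposite strand. As no source used here gives the strand setting, how reads in that shared part were assigned to the 2 genes is not known. Hotairm1, at the anterior end of the Hoxa cluster, measured 0.382, 0.281, 0.273, 0.663 and 0.318 FPKM in the ammonium acetate libraries and 0.248, 0.716, 0.470 and 0.838 FPKM in the PBS libraries. Here the same 3 libraries were highest. Hotair, in the Hoxc cluster between Hoxc11 and Hoxc12, averaged 0.308 ± 0.158 FPKM in ammonium acetate and 0.334 ± 0.120 FPKM in PBS. Hoxd3os1 averaged 0.572 ± 0.287 FPKM in ammonium acetate and 0.545 ± 0.177 FPKM in PBS.

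For some genes and marker lists, the libraries therefore differed in a way that crossed the treatments. PBS library 5, ammonium acetate library 7 and PBS library 8 were the 3 lowest of the 9 for Hoxa11, Hoxa13, Hoxa11os and Hoxc10, and the 3 highest for Hoxa7 and Hotairm1. They were also the 3 highest for the summed markers of tendon, of fibroblasts and of Schwann cells, and the 3 lowest for the sum of the gastrocnemius fibre markers. None of the other tested Hox genes, and none of the other marker lists, had these 3 libraries as its lowest or highest 3. Among those lists were satellite cells, endothelium, smooth muscle and pericytes, macrophages and fat. Tendon markers (Scx, Tnmd, Mkx, Fmod, Thbs4 and Kera) summed to 106, 79.4, 74.0, 159 and 53.1 FPKM in the ammonium acetate libraries, against 60.3, 304, 67.7 and 253 FPKM in the PBS libraries. Of the 6 genes 5 had a log2 fold change below 0 (median -0.57) with none called. The 10 fibroblast markers, led by Gsn and Dcn, summed to 497 to 729 FPKM in ammonium acetate and 463 to 1112 FPKM in PBS, and all 10 had a log2 fold change below 0 (median -0.29) with none called. Schwann cell markers summed to 30.7 to 125 FPKM in ammonium acetate and 36.5 to 116 FPKM in PBS, and all 5 lay below 0 (median -0.29) with none called. No marker of these lists was at 0 in all libraries. Markers of several further cell types, though not of all, also lay mostly below 0 in ammonium acetate. Endothelium markers summed to 35.5 to 77.5 FPKM in ammonium acetate and 73.4 to 84.7 FPKM in PBS. All 5 had a log2 fold change below 0 (median -0.53). Of these 5, 3 were lower with an unadjusted p under 0.05 by limma, against 5.36% of all genes tested. So were 1 fibroblast, 1 smooth muscle and pericyte, 1 macrophage and 2 gastrocnemius fibre markers, but 0 tendon or Schwann cell markers. Of the 5 erythroid and neutrophil markers 3 were lower and 2 higher at that limit. Above 0 lay 5 of the 8 gastrocnemius fibre markers (median 0.14) and all 7 skin markers (median 0.94). The skin sum was high in ammonium acetate library 5 alone. Of the smooth muscle and pericyte markers 5 of 6 lay below 0 (median -0.33), with sums of 108 to 160 FPKM in ammonium acetate and 121 to 164 FPKM in PBS. All 4 tested macrophage markers lay below 0 as well (median -0.33), with sums of 29.2 to 43.8 FPKM in ammonium acetate and 20.4 to 53.7 FPKM in PBS. None of these markers was called. The part of any of these cell types in the Hox values was not tested.

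**Figure D5:**
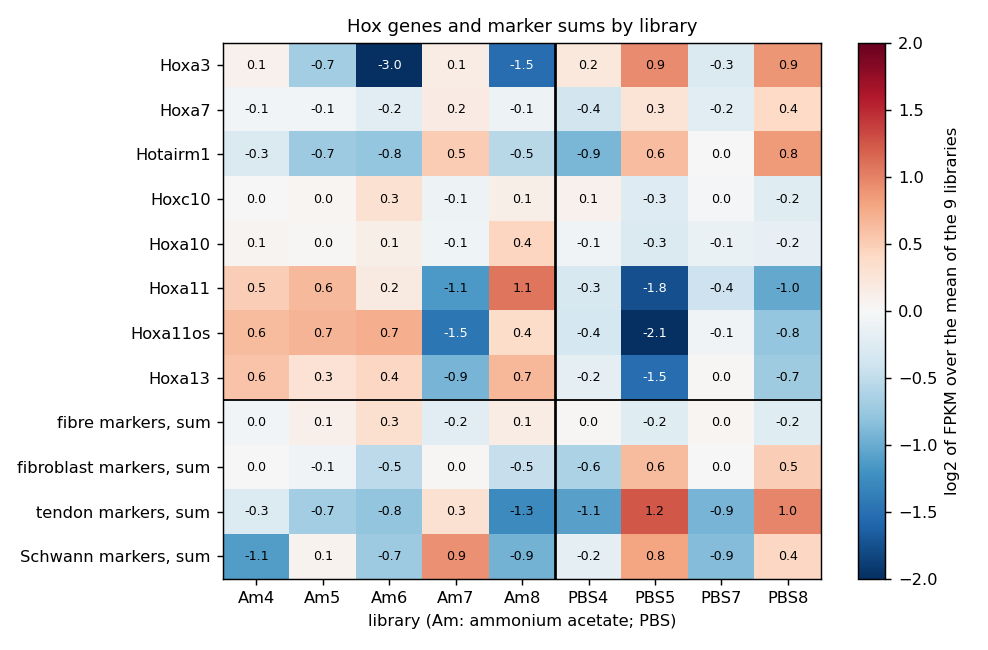
Each cell gives the log2 of a library's FPKM over the mean of the 9 libraries, for 8 genes of the Hox clusters (upper part) and for 4 summed marker lists (lower part), with the ammonium acetate libraries left of the PBS libraries. Ammonium acetate library 7 and PBS libraries 5 and 8 are low for Hoxa11, Hoxa11os and Hoxa13, at -2.13 to -0.71, and high for the tendon sum, at 0.31 to 1.24. The lists shown are those in which these libraries were the lowest or the highest, and the other lists are left out.

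Genes of limb identity matched a hindlimb origin in part. Tbx4, the T-box factor of the hindlimb, measured 0.558 to 1.48 FPKM (median 1.21) in ammonium acetate and 0.963 to 1.52 FPKM in PBS, whereas Tbx5, its forelimb counterpart, reached at most 0.0102 FPKM in ammonium acetate and 0.0798 FPKM in PBS. The Tbx4 level lay above the Tbx5 level in every library. Pitx1, which acts upstream of Tbx4 in the hindlimb bud, stayed at 0.0347 to 0.213 FPKM in ammonium acetate and 0.0120 to 0.257 FPKM in PBS, on 1 to 16 reads. The most abundant gene of the list was Tbx15, a T-box factor of limb muscle and skeleton, at 71.8 ± 10.8 FPKM in ammonium acetate and 72.5 ± 6.54 FPKM in PBS, with a log2 fold change of -0.02 and a 95% interval of -0.30 to 0.25.

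En1, a homeobox factor of the ventral limb ectoderm, had the smallest p of the 15 listed limb genes. It measured 5.81, 5.12, 3.79, 3.68 and 5.68 FPKM in the ammonium acetate libraries, against 3.71, 2.90, 3.52 and 2.53 FPKM in the PBS libraries, so that ammonium acetate library 7 fell just below PBS library 4. Its log2 fold change came to 0.53 (standard error 0.16) (limma, unadjusted p = 0.00766, adjusted p = 0.527). The other tested limb genes had fold changes below 0. Among them were Tbx4 (-0.15), Tbx2 (-0.24, with 0.646 ± 0.203 FPKM in ammonium acetate and 0.862 ± 0.287 FPKM in PBS), Tbx3 (-0.29), Shox2 (-0.18) and Tbx15. Tbx3 averaged 0.833 ± 0.289 FPKM in ammonium acetate and 1.14 ± 0.420 FPKM in PBS, and Shox2 averaged 0.628 ± 0.275 FPKM in ammonium acetate and 0.768 ± 0.265 FPKM in PBS. Of the 15 genes 7 were tested, 1 above 0 and 6 below, and 0 were called by limma.

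Cofactors of the Hox proteins were read at moderate levels. The Pbx and Pknox proteins bind DNA together with Hox proteins and sharpen their choice of site. Pknox2 averaged 9.84 ± 1.40 FPKM in ammonium acetate and 10.8 ± 0.556 FPKM in PBS, and Pbx2 averaged 4.88 ± 0.744 FPKM in ammonium acetate and 5.33 ± 0.412 FPKM in PBS. Lower in level were Pknox1, at 3.31 ± 0.285 FPKM in ammonium acetate and 3.24 ± 0.279 FPKM in PBS, and Pbx3, at 0.849 ± 0.0933 FPKM in ammonium acetate and 0.777 ± 0.211 FPKM in PBS. Of the 9 listed cofactors 5 were tested, 2 above 0 and 3 below, and 0 were called. The log2 fold change was -0.14 for Pknox2, -0.13 for Pbx2, 0.03 for Pknox1 and 0.09 for Pbx3. Meis1, the proximal limb marker, had a mean below the limit at 0.383 ± 0.153 FPKM in ammonium acetate and 0.432 ± 0.105 FPKM in PBS. Of 13 related homeobox genes outside the clusters, 8 had no read in any library. The 2 tested were the somite factors Meox2, at 4.81 ± 0.625 FPKM in ammonium acetate and 5.71 ± 0.400 FPKM in PBS, and Meox1, at 1.31 ± 0.259 FPKM in ammonium acetate and 1.47 ± 0.715 FPKM in PBS.

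Polycomb proteins keep Hox genes silent outside their domain, and trithorax proteins keep them active within it. Of 27 tested Polycomb genes 12 had a log2 fold change above 0 and 15 below, with a median of -0.01, and 0 were called. The 3 of smallest p were Yaf2, at 17.3 ± 3.41 FPKM in ammonium acetate and 13.1 ± 1.67 FPKM in PBS (log2 fold change 0.37), Phc3, at 1.22 ± 0.404 FPKM in ammonium acetate and 1.74 ± 0.301 FPKM in PBS (-0.40), and Rybp, at 0.743 ± 0.182 FPKM in ammonium acetate and 1.03 ± 0.161 FPKM in PBS (-0.31). Of 18 tested trithorax and H3K27 demethylase genes 2 lay above 0 and 16 below, with a median of -0.15, and 0 were called. Kmt2a, the methyltransferase best known for holding Hox genes active, measured 1.37, 0.974, 0.435, 1.24 and 0.467 FPKM in the ammonium acetate libraries, against 1.19, 1.39, 1.67 and 2.13 FPKM in the PBS libraries. Ammonium acetate libraries 6 and 8 were far the lowest, and libraries 4 and 7 of that group lay among the PBS values. Its log2 fold change came to -0.62 (standard error 0.23) (limma, adjusted p = 0.527). The next by p were Dpy30, at 24.3 ± 7.37 FPKM in ammonium acetate and 17.9 ± 1.34 FPKM in PBS (0.39), and Kmt2c, at 2.04 ± 0.800 FPKM in ammonium acetate and 3.0 ± 0.512 FPKM in PBS (-0.52). Kmt2c was also lowest in ammonium acetate libraries 6 and 8, and Dpy30 was highest in them, at 36.85 and 24.5 FPKM. Gene lengths were 16470 bases for Kmt2a, 14967 for Kmt2c and 799 for Dpy30. For Phc3, Rybp and Yaf2 they were 10976, 4458 and 1870. The part of gene length in these values was not tested.

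Further lists held no call either. Retinoic acid opens the Hox clusters in the embryo, and of 12 tested genes of its pathway 3 lay above 0 and 9 below. Those of smallest p were Rxrg (50.5 ± 14.4 FPKM in ammonium acetate and 36.5 ± 5.37 FPKM in PBS, log2 fold change 0.43), Rxrb (24.0 ± 3.04 FPKM in ammonium acetate and 20.1 ± 1.79 FPKM in PBS, 0.25) and Aldh1a1 (45.6 ± 9.57 FPKM in ammonium acetate and 56.4 ± 12.6 FPKM in PBS, -0.30). CTCF and cohesin set the borders inside the clusters, and of 9 tested genes of that kind 1 lay above 0 and 8 below, led by Smc1a (4.54 ± 1.36 FPKM in ammonium acetate and 6.06 ± 1.16 FPKM in PBS, -0.41). Smc3 averaged 4.72 ± 0.893 FPKM in ammonium acetate and 5.48 ± 0.683 FPKM in PBS (-0.21), and Nipbl 3.31 ± 1.20 FPKM in ammonium acetate and 4.08 ± 0.713 FPKM in PBS (-0.31). Of 16 tested genes that flank the clusters 4 lay above 0 and 12 below. Those of smallest p were Lnp, beside the Hoxd cluster (7.83 ± 1.39 FPKM in ammonium acetate and 9.98 ± 1.28 FPKM in PBS, -0.34), Snx11 (2.28 ± 0.310 FPKM in ammonium acetate and 2.98 ± 0.580 FPKM in PBS, -0.31) and Calcoco1 (25.8 ± 3.92 FPKM in ammonium acetate and 29.9 ± 3.44 FPKM in PBS, -0.21). In all these lists the median lay below 0, as did that of all genes tested, and nothing particular to a list is read from it.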

How the data were processed

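The authors deposited 1 table of FPKM values for 35275 genes with identifiers, symbols, coordinates and gene lengths. The build mm10 and the tools HTSeq, DESeq2, TopHat and STAR are listed without version or role, per the submitters' processing notes. No source used here states the read length, the strand setting or what was done with reads that match several genes. Within 0.05 read, 100.0% of the FPKM values came out as whole reads, so the depth of each library could be recovered. No column of another sample was present.

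The test by limma 3.58.1 in R 4.3.3 took the 11337 genes whose FPKM averaged 0.5 or more across the 9 libraries. The fit used a mean-variance trend on log2(FPKM + 0.5) and a two-sided test. Adjustment was by Benjamini-Hochberg over all 11337 genes, with a threshold of 0.05. Fold changes are ammonium acetate minus PBS on this log2 scale, and those of genes with low FPKM are thereby understated. Sums and levels are FPKM without a pseudocount.

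The Hox genes and the lists of cofactors, limb genes, regulators, flanking genes and cell type markers were chosen with earlier results of these data known. Values in every library are given for the tested Hox genes. In the regulator and flanking lists the 3 members of smallest unadjusted p are named, with means and SD or single values. Of the noncoding genes in the clusters, those with a mean of at least 0.1 FPKM are described. The values of some listed genes are not reported here. Exon overlaps come from GENCODE M21 on the same build as the table (GRCm38), where 50-base stretches shared with Hox genes of other clusters numbered 3 between Hoxa6 and Hoxb4, 1 between Hoxb9 and Hoxc9 and 0 for the other Hox genes.

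The 23 alternatives covered the pseudocount, the filter, rescaling, the moderation, library weights, voom on the recovered reads, the replicate number, a gene length trend and libraries left out. The fit was tested on simulated data. Python 3.11.15 with pandas 2.3.3, numpy 2.4.6 and matplotlib 3.10.9 made the tables and plots.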

Additional observations from a re-analysis of the deposited data

Results flagged for a closer look

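Every tested Hox gene, the noncoding genes of the clusters and the named genes of the lists were screened, in each treatment, for a single library far from the others by Dixon's test at the 95% level. Of 108 groups screened 7 had such a library, and chance gives about 1 in 20.

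In the Hox clusters, Hoxa11os stood at 0.474 FPKM in ammonium acetate library 7, where the other 4 libraries of that group held 1.68 to 2.13 FPKM. Hotairm1 was at 0.663 FPKM in the same library, where the others held 0.273 to 0.382 FPKM. Hoxd3os1 was at 0.281 FPKM in PBS library 8, where the others held 0.619 to 0.658 FPKM. No tested Hox gene met the limit in either group, and the untested Hox genes were not screened.

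Among the other genes, the cofactor Pbx2 was at 5.95 FPKM in PBS library 8, where the others held 5.06 to 5.21 FPKM. The Polycomb gene Phc3 was at 1.29 FPKM in PBS library 4, where the others held 1.87 to 1.91 FPKM, and Yaf2 was at 15.6 FPKM in PBS library 7, where the others held 12.1 to 12.6 FPKM. Snx11, a gene beside the Hoxb cluster, was at 1.74 FPKM in ammonium acetate library 6, where the others held 2.36 to 2.50 FPKM.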

How the results depend on the processing

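No gene passed the threshold under any of the 23 alternatives (smallest adjusted p by limma 0.306 over all genes and 0.321 among Hox genes), and the unadjusted p lay under 0.05 in 256 to 1730 genes and in 1 to 6 Hox genes. The direction of 10 of the 17 tested Hox genes held in every alternative run in which the gene was tested. These included Hoxc11, Hoxa10, Hoxa11, Hoxa13 and Hoxa5. The median log2 fold change of the tested Hox genes, -0.00084, was 0.148 when a mean of 1 FPKM was required, which drops Hoxa5, Hoxa6 and Hoxb7, and 0.0757 with library weights. With 1 library left out it ranged from -0.0453, without ammonium acetate library 5, to 0.118, without PBS library 5.

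Genes near 0 changed sign. With library weights the log2 fold change was 0.0757 for Hoxa4, 0.0256 for Hoxa9, 0.0354 for Hoxd10 and 0.143 for Hoxc4. Median-of-ratios scaling gave 0.0318 for Hoxa9 and 0.0342 for Hoxc4, upper quartile scaling 0.0 after rounding for Hoxc4, and removal of the gene length trend 0.0358 for Hoxa9. Without ammonium acetate libraries 6 and 8 it was 0.0206 for Hoxb7, 0.119 for Hoxd10 and 0.0969 for Hoxc4. Leaving out single libraries gave -0.186 to 0.0669 for Hoxa4, -0.0653 to 0.0414 for Hoxa9, -0.178 to 0.0371 for Hoxa7, -0.146 to 0.118 for Hoxb7, -0.353 to 0.0129 for Hoxa6, -0.208 to 0.0039 for Hoxd10 and -0.0667 to 0.0879 for Hoxc4. The cause was not tested.

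Whether equal replicate numbers mark paired libraries could not be settled. Deviations from the group means correlated at -0.28, -0.07, -0.34 and -0.28 for numbers 4, 5, 7 and 8. For unlike numbers the correlations ran from -0.29 to 0.35, and such correlations cannot show whether libraries were paired. With the replicate block 0 genes passed, 260 genes and 2 Hox genes had an unadjusted p under 0.05, and the Hox median was 0.0879. The block gave 0.0669 for Hoxa4, 0.0015 for Hoxa9, 0.0064 for Hoxb7, 0.0129 for Hoxa6, 0.0039 for Hoxd10 and 0.0879 for Hoxc4. Low counts limit Hoxa5, Hoxa6 and Hoxb7, which rest on at most 90 reads per library.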
